A study of Rattus norvegicus with 25 samples.

Results

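The nuclear genes of oxidative phosphorylation were examined in rat gingiva, as the protein-coding genes whose symbols begin with Nduf, Uqcr, Atp5 or Cox4 to Cox8, together with Sdha, Sdhb, Sdhc, Sdhd, Cyc1 and Cycs. The rule found 95 genes among the 30543 in the table. By complex these were 37 subunit genes and 8 assembly factor genes of complex I, 4 genes of complex II, 9 of complex III, 19 of complex IV, 17 of complex V and Cycs. Transcripts were summed per gene, and 92 of the 95 genes reached 2 CPM (reads scaled to the library total) in at least 1 library and were tested. Cox6c-ps1, Cox7b2 and Cox8c were at 0 in all 25 libraries, and a count of 0 allows up to 0.0592 CPM (3 reads) in the smallest library. Ndufs6 was present only as a processed pseudogene and was left out by the rule.

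Wild type Sprague-Dawley rats formed 5 groups of 5 animals, with 1 gingival RNA library per rat. The sham group had hydrogel as its control. In the experimental periodontitis (EP) group, silk ligatures were tied around the maxillary first molars and Porphyromonas gingivalis, a periodontal pathogen, was smeared on them; whether these rats also received drug-free hydrogel is not stated. The other three groups had the same disease model and received a hydrogel with curcumin (Cur gel), with zinc oxide nanoparticles (ZNP gel) or with both (Cur/ZNP gel), in 200 μL volumes weekly for 4 weeks. The combined gel held each agent at a lower concentration than the single gels, so dose and combination cannot be told apart. The labels give an age of 6 weeks, and the methods of the study give an older age and name male rats and penicillin injections.

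Complexes I and II take electrons from NADH and succinate, complex III passes them through cytochrome c to complex IV, which reduces oxygen, and complex V uses the resulting proton gradient to make ATP. The enzymes combine core subunits, which have bacterial counterparts and carry the redox centres or catalytic sites, with accessory subunits that arose later. Most subunits are nuclear, a few are encoded in mitochondrial DNA, and several complex IV subunits have tissue isoforms, among them Cox6a2, Cox7a1 and Cox8b of heart and skeletal muscle. Skeletal muscle is rich in mitochondria, whereas stratified oral epithelium holds fewer.

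The libraries held 50690789 to 81791804 reads (median 62227570), of which the 95 genes took 0.531% (Sham 4) to 2.31% (Cur/ZNP gel 5 and ZNP gel 5). The epithelial keratin Krt5 was at 34582 normalised counts or more in every library. Sham 4, EP 3 and EP 4 stood apart, with the nasal gland gene Obp1f at 12414500, 5859120 and 6971330 normalised counts against at most 29281 in the other libraries. The normalised counts of 16 skeletal muscle markers (of 20 on the list) summed to 30180 at the lowest and 506100 at the highest among sham libraries and to 464175 and 2362170 among EP libraries. The limits were 10713 and 2713490 for Cur gel, 437979 and 3914440 for ZNP gel, and 432624 and 3420560 for Cur/ZNP gel, and none of the 16 was at 0 throughout. In bulk tissue, fewer cells of a type and less RNA per cell cannot be told apart.

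Comparing EP with sham asks how the genes differ between diseased and healthy gingiva. In EP 5 of 22 core subunits (22.7%) were higher by limma, led by Ndufs1 (3.09-fold) and Sdha (2.66-fold), a share near the 18.8% of all genes. The accessory subunits had a median log2 difference of 0.16, and of 0.42 without Sham 4, EP 3 and EP 4. Within complex IV the muscle isoform Cox6a2 was higher while Cox4i2, Cox6b2, Cox6a1 and Cox7a2l were lower. In limma with Benjamini-Hochberg adjustment, 7 of 92 genes (7.61%) were higher and 6 (6.52%) lower in EP at an adjusted p under 0.05. Over all 16089 genes tested, 18.8% were higher and 18.9% lower, so both shares were below the background. The median log2 fold change was 0.21 over the 92 genes and 0.01 over all genes. At an unadjusted p under 0.05 in limma were 23 of the 92 genes and 7598 of all 16089, so this share was also below the background. The counts per complex that follow have the same background. Under scaling to library totals, which moved the median of all genes to -0.12, 3 genes were higher and 4 lower, and the share of higher genes among all calls was 39.7% in place of 49.9%. Without Sham 4, EP 3 and EP 4 the counts were 6 and 5, and the medians were 0.48 over the 92 genes and -0.02 over all genes. The number of higher genes fell to 4 without Sham 5, to 3 without EP 1 and to 4 without EP 2. Leaving out each of the other libraries gave 5 to 9 higher genes, and 4 to 7 were lower across all omissions, with 4 without Sham 3.

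**Figure D1:**
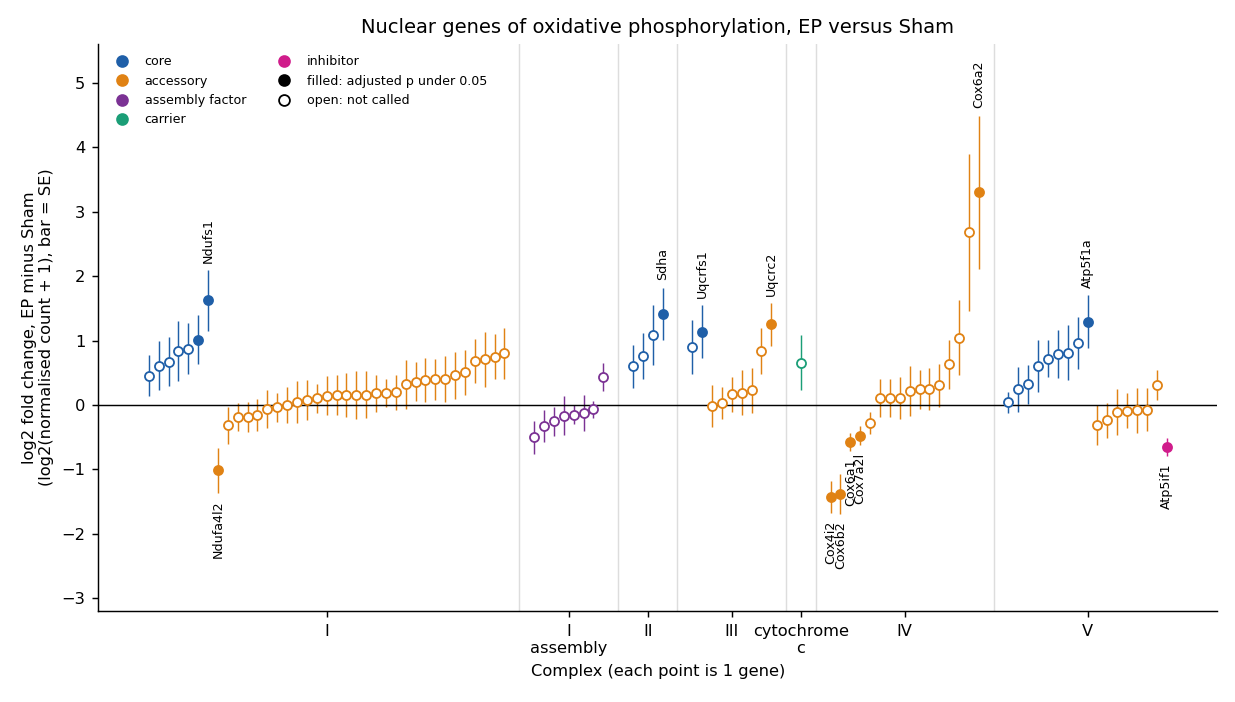
Log2 fold change of each of the 92 tested genes between EP and sham (y axis, limma estimate with its SE as a bar), arranged by complex on the x axis and coloured by class, with filled points for an adjusted p under 0.05. All 22 core subunits and 40 of 60 accessory subunits lie above 0, 7 of 8 assembly factors lie below it, and Cox6a2 is the highest point at 3.30.

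The core and accessory classes were separated by textbook knowledge after the values had been seen, so their counts are a description. All 22 core subunits had a positive log2 fold change (21 of 22 under scaling to library totals), with a median of 0.80. The 5 that passed the threshold were 22.7% of them, near the 18.8% of all genes that were higher. That count depended on the processing, with 10 of 22 in DESeq2 and 2 under scaling to library totals, whose own backgrounds are not given here. The 60 accessory subunits had a median of 0.16, with 40 positive and 20 negative values, and 2 were higher and 5 lower. With all libraries kept, scaling to library totals put the median at 0.67 for the core and 0.026 for the accessory subunits. The core median lay 0.79 above the median of all genes in both scalings, which scaling can hardly change, since it shifts all genes nearly alike. Mean log2 levels of the core subunits were 12.80 ± 0.26 (SD, n = 5) in sham and 13.61 ± 0.41 in EP, and those of the accessory subunits 11.92 ± 0.43 and 12.13 ± 0.30.

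In complex I, 2 of 37 subunits were higher and 1 lower. Ndufs1 (chr9:69919867-69953182 in Rnor_6.0), the iron-sulfur subunit next to the NADH oxidation site, held 4708, 5956, 5354, 4844 and 4164 normalised counts in sham 1 to 5 and 25647, 21663, 9045, 14070 and 12001 in EP 1 to 5. Every EP library was above every sham library, and EP 3 was the lowest of the EP libraries. The difference was 3.09-fold (log2 1.63 ± 0.47 SE, adjusted p 0.0101). Ndufv1, which binds the flavin that accepts electrons from NADH, was at 5811 ± 852.2 (SD, n = 5) in sham and 11023 ± 3660 in EP and did not pass (log2 0.87, adjusted p 0.0835). The core subunits Ndufs3, Ndufs7, Ndufs8 and Ndufv2 had log2 differences of 0.67, 0.84, 0.46 and 0.61, none called.

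Of the 30 accessory subunits listed under complex I, 0 were higher by limma (2 of 30 at an unadjusted p under 0.05 in either direction), and their median log2 difference was 0.16. The lower one was Ndufa4l2 (chr7:70821957-70824085), a hypoxia-induced paralogue of Ndufa4, a protein that by current knowledge belongs to complex IV. Ndufa4l2 held 915, 1126, 1555, 352 and 872 normalised counts in sham and 789, 596, 221, 365 and 386 in EP. Sham 4 was the lowest sham library, the groups overlapped, and the log2 difference was -1.01 ± 0.35 (adjusted p 0.0269). That call was lost without Sham 1, Sham 2, Sham 3, EP 3 or EP 4 (adjusted p 0.0527, 0.0535, 0.0905, 0.0889 and 0.0549), under scaling to library totals (0.091) and with the 2 groups fitted alone (0.114). Ndufa4 itself did not differ beyond its spread (log2 0.18 ± 0.29).

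The 8 complex I assembly factors, which help build the enzyme and are not part of it, gave 0 calls by limma, edgeR and DESeq2 in EP against sham (0 of 8 at an unadjusted p under 0.05 in limma). The smallest p belonged to Ndufaf1 at log2 0.44 (adjusted p 0.114), followed by Ndufaf2 at -0.50 (0.122), Ndufaf6 at -0.32 (0.310) and Ndufaf5 at -0.25 (0.385). Their median was -0.16, with 7 of 8 values negative.

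Complex II, which is succinate dehydrogenase and also an enzyme of the tricarboxylic acid cycle, is wholly nuclear. Sdha (chr1:31545631-31570601), its flavoprotein, held 7111, 8635, 7100, 9771 and 6566 normalised counts in sham and 29505, 26981, 14919, 22008 and 14375 in EP. All EP libraries were above all sham libraries, and the difference was 2.66-fold (log2 1.41 ± 0.41, adjusted p 0.00969). The iron-sulfur subunit Sdhb and the membrane anchors Sdhc and Sdhd had log2 differences of 1.08, 0.60 and 0.76 and did not pass (adjusted p 0.0675, 0.156 and 0.103).

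In complex III, 2 of 9 genes were higher and 0 lower by limma (4 of 9 at an unadjusted p under 0.05). Uqcrc2 (chr1:190555177-190585734), a large matrix-side accessory subunit, held 6871, 8210, 6801, 7259 and 6759 normalised counts in sham and 24053, 20353, 12440, 16110 and 14623 in EP. The groups did not overlap, and the difference was 2.38-fold (log2 1.25 ± 0.34, adjusted p 0.00629). Uqcrfs1 (chr17:35677984-35682259), the Rieske iron-sulfur protein, was at 7211 ± 1261 (SD, n = 5) in sham and 16397 ± 5636 in EP, without overlap (log2 1.14 ± 0.41, adjusted p 0.033).

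Uqcrc1 and Cyc1, the latter being cytochrome c1, had log2 differences of 0.84 and 0.90 that did not pass (adjusted p 0.0705 and 0.0903). The small subunits Uqcrh, Uqcr10, Uqcr11 and Uqcrq lay between -0.02 and 0.23. Uqcrb, at 0.19, took 58% of its reads from a second locus of that symbol on chromosome 1 and is uncertain. Cycs, the electron carrier between complexes III and IV, was at 9034 ± 3078 in sham and 14135 ± 4392 in EP, within the spread (log2 0.66 ± 0.42, adjusted p 0.225).

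In complex V, Atp5f1a was higher and Atp5if1 lower among 17 genes. Atp5f1a (chr18:74156553-74164495), the alpha subunit of the catalytic head, held 24320, 28220, 24908, 22389 and 22718 normalised counts in sham and 92253, 74665, 39557, 58458 and 47957 in EP. EP 3 was again the lowest of its group and still above all sham libraries (2.45-fold, log2 1.29 ± 0.41, adjusted p 0.018). The beta subunit Atp5f1b, which holds the catalytic sites, was at 47198 ± 7484 and 94587 ± 31023 (log2 0.96, adjusted p 0.0656), and Atp5pb of the peripheral stalk differed by 0.72 (adjusted p 0.0547; a near-identical gene copy is present in the table). The 9 core subunits of complex V had a median of 0.72 and the 7 accessory subunits one of -0.09, with 6 of 7 negative.

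Atp5if1 (chr5:150719569-150723321), the inhibitor that blocks ATP hydrolysis by complex V, held 6688, 5050, 9202, 6348 and 4633 normalised counts in sham and 3641, 3470, 4227, 4033 and 4401 in EP. Sham 3 was the highest library and the groups did not overlap. The log2 difference was -0.65 ± 0.14 (adjusted p 0.00148), and it was called in 21 of 21 alternatives (adjusted p up to 0.0334).

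**Figure D2:**
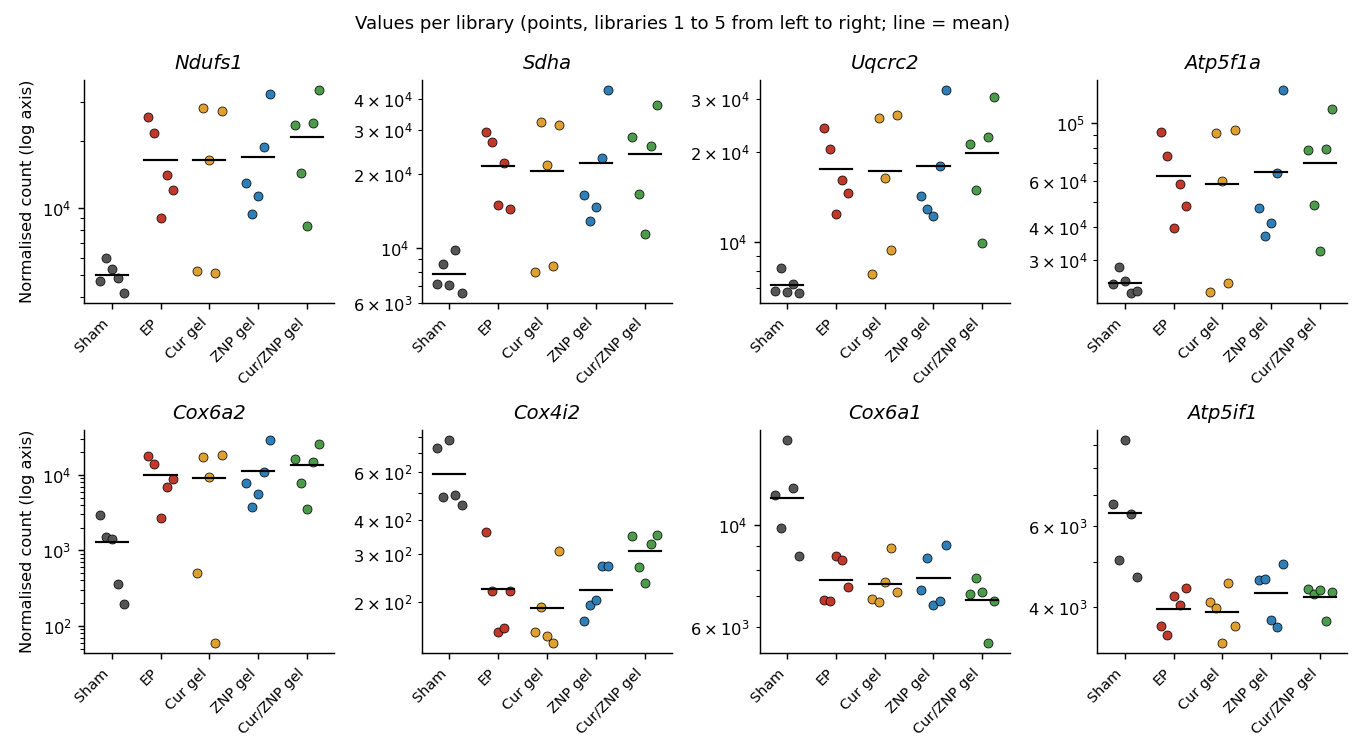
Normalised counts (log axis) of 8 genes in each library, with libraries 1 to 5 of a group from left to right and a line at the mean. Ndufs1, Sdha, Uqcrc2 and Atp5f1a are higher in all EP libraries than in all sham libraries, Cur gel 1 and Cur gel 4 lie near the sham values of these 4 genes, and Cox4i2, Cox6a1 and Atp5if1 have their highest values in sham.

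In complex IV, 1 of 16 tested genes (6.25%) was higher and 4 (25%) were lower, against 18.8% and 18.9% of all genes. The higher share was thus below the background and the lower share near it. Cox6a2 (chr1:199624037-199624783), the heart and muscle form of subunit 6a, held 2941, 1486, 1424, 362 and 196 normalised counts in sham and 17632, 13926, 2672, 6952 and 8928 in EP. Only EP 3 fell within the sham range, below Sham 1. The difference was 9.83-fold (log2 3.30 ± 1.19, adjusted p 0.0335), and the call was lost in limma without Sham 4, Sham 5, EP 1, EP 2 or EP 5 (adjusted p 0.0698, 0.0828, 0.0731, 0.0712 and 0.0522) and under scaling to library totals (0.0678).

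Cox6a1 (chr12:47024442-47027495), the form of other tissues, held 11667, 9871, 15357, 12049 and 8591 in sham and 6857, 6851, 8584, 8409 and 7328 in EP. The groups did not overlap, with Sham 5 just above EP 3 (log2 -0.58 ± 0.14, adjusted p 0.00272). As a share of the pair, Cox6a2 made up 20.1%, 13.1%, 8.49%, 2.92% and 2.23% in sham and 72.0%, 67.0%, 23.7%, 45.3% and 54.9% in EP. The log2 ratio of Cox6a2 to Cox6a1 averaged -3.73 in sham and 0.14 in EP, a difference of 3.87 (exact permutation test, two-sided, p = 0.00794, which is the smallest that 5 against 5 libraries can give; 0.0106 adjusted over 12 tests).

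Cox8b (chr1:213648787-213650247), the muscle form of subunit 8, held 1877, 774, 817, 730 and 101 normalised counts in sham and 10072, 5885, 1153, 2565 and 5400 in EP. Again only EP 3 overlapped with sham, and the gene did not pass in limma (log2 2.68 ± 1.22, adjusted p 0.0886). Its partner Cox8a was at 6952 ± 1611 and 5721 ± 1347 (log2 -0.28, adjusted p 0.188). The log2 ratio of Cox8b to Cox8a was -3.46 ± 1.41 in sham and -0.51 ± 1.49 in EP (difference 2.96, exact permutation p = 0.0159, adjusted 0.019). Cox7a1, the muscle form of subunit 7a, was low throughout, at 27, 44, 26, 33 and 22 in sham and 71, 94, 45, 56 and 54 in EP, without overlap and without passing (log2 1.05 ± 0.58, adjusted p 0.158).

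Cox4i2 (chr3:148234193-148245416), the form of subunit 4 known from lung and from low oxygen, held 731, 485, 781, 494 and 453 normalised counts in sham and 359, 220, 155, 160 and 219 in EP. No EP library reached the lowest sham library, and the log2 difference was -1.43 ± 0.25 (2.70-fold lower, adjusted p 0.000314). Cox4i1, the common form, did not differ beyond its spread (log2 0.25 ± 0.33), and the log2 ratio of Cox4i2 to Cox4i1 fell from -5.18 ± 0.33 to -6.86 ± 0.28 (difference -1.68, exact permutation p = 0.00794, adjusted 0.0106). Without Sham 4, EP 3 and EP 4 the ratios of Cox6a2, Cox8b and Cox4i2 to their partners differed by 4.29, 3.96 and -1.67, with an adjusted exact permutation p of 0.0686 for each; 4 against 3 libraries allow no unadjusted p below 0.0571.

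Cox6b2 (chr1:72661211-72662434), the testis form of subunit 6b, held 141, 114, 142, 120 and 140 normalised counts in sham and 62, 23, 39, 63 and 82 in EP, with no overlap (log2 -1.38 ± 0.31, adjusted p 0.00173). Its partner Cox6b1 was near 0 (log2 0.11 ± 0.30; -0.02 under scaling to library totals), as was Cox7b (0.12; -0.02 in that scaling). Cox7a2l (chr6:6695827-6709783), which joins complexes III and IV in supercomplexes, was at 13541 ± 3869 in sham and 9447 ± 1036 in EP, with overlap (log2 -0.48 ± 0.15, adjusted p 0.0135). That call was lost without Sham 3 (0.0513), under scaling to library totals (0.056) and with the 2 groups fitted alone (0.0994).

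**Figure D3:**
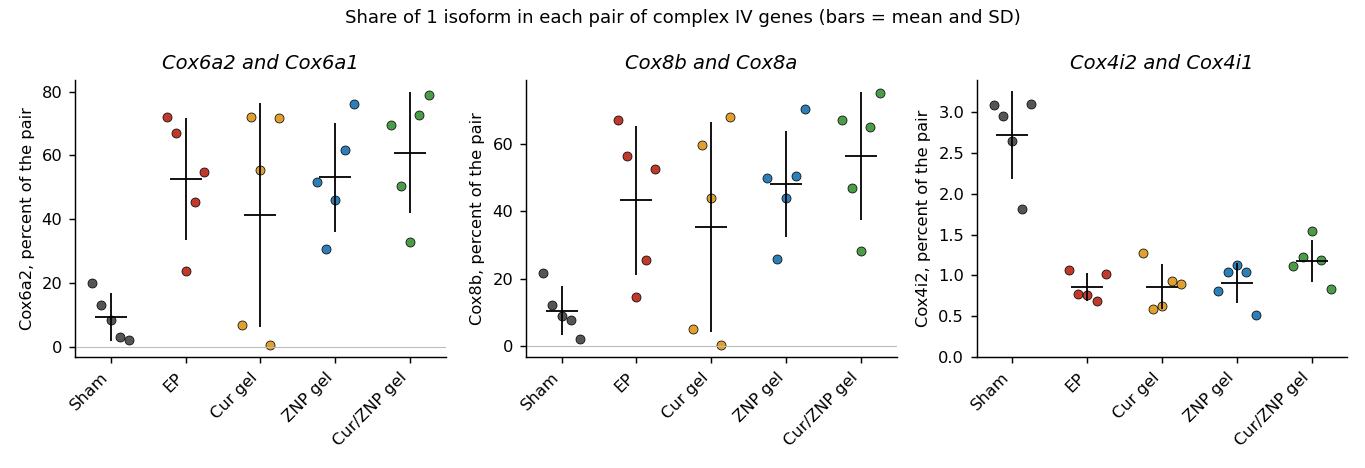
Share of Cox6a2, Cox8b and Cox4i2 in the sum with their partner isoform (y axis, percent) in each library of the 5 groups, with bars for the mean and SD. Cox6a2 makes up 2.23% to 20.1% of its pair in sham and 23.7% to 72.0% in EP, whereas Cox4i2 falls from a mean of 2.72% to 0.861%.

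Of the 13 genes called in EP, 7 were called under each of the 10 omissions of 1 library, namely Ndufs1, Sdha, Uqcrc2, Cox4i2, Cox6a1, Cox6b2 and Atp5if1. These 7 were also called under scaling to library totals. Atp5f1a was lost without EP 1 (adjusted p 0.0505) and under scaling to library totals (0.0587). Uqcrfs1 was lost without Sham 1, 3 or 5 (0.0538, 0.061 and 0.0652) and without EP 1 or 2 (0.0839 and 0.0788) and under scaling to library totals (0.0784). Without Sham 4, EP 3 and EP 4 the calls of Cox6a2 (0.0731) and Cox7a2l (0.082) were lost.

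The levels of the core subunits were read beside the muscle markers. Of all genes tested, 18.8% were higher and 18.9% lower in EP. In EP against sham 9 of the 16 markers were higher and 0 lower by limma, with a median log2 difference of 3.01, among them Acta1 (3.45), Ckm (3.33) and Myh4 (3.70), the actin, creatine kinase and a fast myosin of skeletal muscle. The libraries with the smallest marker sums were Cur gel 4 (10713), Sham 5 (30180), Sham 4 (44488) and Cur gel 1 (77299), and their mean log2 core levels were 12.55, 12.40, 13.01 and 12.31. The other three Cur gel libraries, with sums of 1406450 or more, had core levels of 13.57 to 14.21. Sham 4 was the exception among the low sums and is one of the libraries that stood apart. Sham 1 had the largest marker sum of its group, 506100, and a core level of 12.90. The libraries nearest to it in marker sum were EP 3 (464175), which also stood apart, ZNP gel 2 (437979) and Cur/ZNP gel 3 (432624). Their core levels were 13.10, 13.08 and 12.83. The accessory level was 12.14 in Sham 1 and 11.74, 11.83 and 11.64 in those 3 libraries, and Cox4i2 was at 731 in Sham 1 and at 155, 195 and 235. Of the other marker lists, autonomic nerve (0 higher, 7 lower of 8) and proliferation (0 and 7 of 8) were lower in EP, and keratinocyte (2 higher, 3 lower of 12), fibroblast (1 and 1 of 7) and endothelial markers (1 and 1 of 5) split. Adipocyte markers were 2 higher and 0 lower of 7, with a median of 1.46. The gland markers had a median of 2.33 with 0 of 11 called in limma, and the leukocyte markers one of -0.32 with 0 of 8 called (0 at an unadjusted p under 0.05 in both lists). The part of muscle and of other tissues in these differences was not tested.

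**Figure D4:**
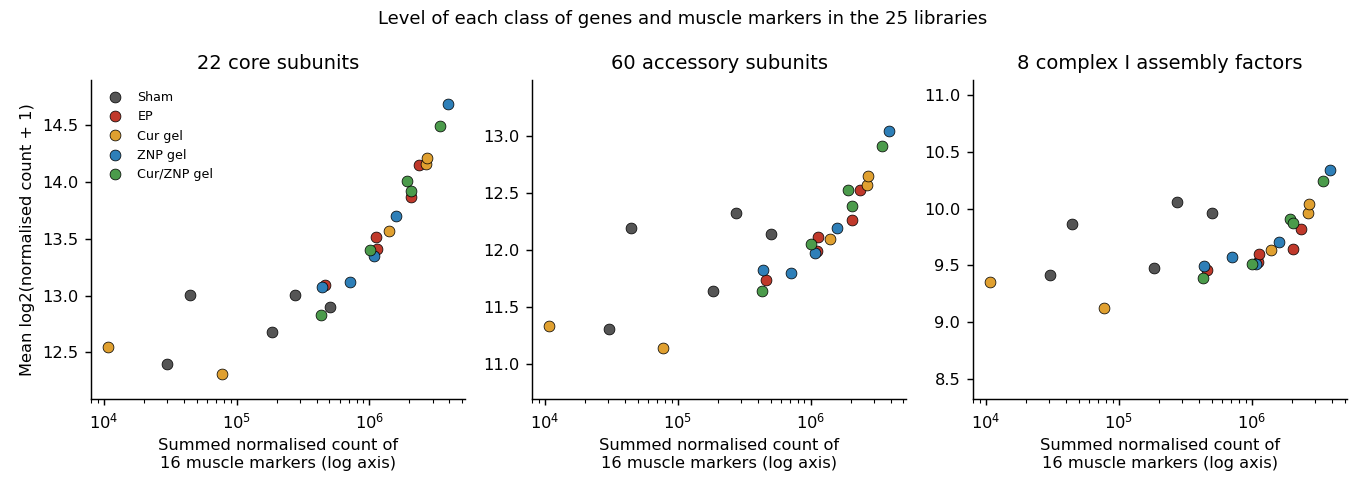
Mean log2(normalised count + 1) of the 22 core subunits, 60 accessory subunits and 8 complex I assembly factors (y axes) against the summed normalised count of 16 muscle markers (x axis, log scale), 1 point per library coloured by group. ZNP gel 5 has the largest sum and the highest core level (14.68), Cur gel 1 has the lowest (12.31), and Sham 1, 3 and 4 have core levels of 12.90 to 13.01 at sums of 506100, 272973 and 44488.

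Other genes of mitochondrial energy supply were read in the same comparison, where 18.8% of all genes were higher and 18.9% lower. Of 12 tricarboxylic acid cycle genes 5 were higher and 0 lower by limma, with a median log2 difference of 0.82, among them Cs (1.38 ± 0.37), the citrate synthase. Of 13 genes of fatty acid oxidation and transport 6 were higher and 0 lower, with a median of 0.90 and with Cpt1b, the muscle form of carnitine palmitoyltransferase, at 2.996 ± 0.82. Of 18 glycolysis genes 3 were higher and 3 lower, with a median of 0.67.

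The 13 protein genes of mitochondrial DNA had a median log2 difference of -0.31, from -0.83 (Mt-nd3, adjusted p 0.0665) to 0.10 (Mt-nd4l), and the smallest adjusted p among them was that of Mt-nd3. Mitochondrial ribosome genes of the small subunit were 0 higher and 7 lower of 28, and assembly factors of complexes II to V were 4 higher and 4 lower of 29. Of 13 tested regulators of mitochondrial biogenesis, 4 were higher, namely the coactivators Ppargc1a (3.16 ± 0.62, adjusted p 0.000759) and Ppargc1b (1.49 ± 0.37, 0.0037) and the nuclear receptors Esrrg (2.52 ± 0.52, 0.00105) and Ppara (1.75 ± 0.32, 0.000452). Nrf1, a transcription factor of respiratory genes, was lower (-0.28 ± 0.07, 0.0053).

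Promoters of these genes are known for sites of NRF1, ETS factors such as GABP, ERR receptors and YY1, and these letters were counted in RefSeq promoters of GRCr8, 250 bases before to 50 after the start, on both strands. A promoter was matched for 82 of the 95 genes. CGCATGCG, the NRF1 core, was in 12.2% of them and in 2.11% of all 21842 protein-coding promoters. CCGGAAG (ETS) was in 26.8% against 10.7%, AAGGTCA (ERR) in 12.2% against 3.78% and AAGATGG (YY1) in 23.2% against 7.29%. The ETS and YY1 letters share AAG and can overlap. Among the 20 matched core subunits the shares were 10% (NRF1), 25% (ETS), 15% (ERR) and 15% (YY1), and among the 53 matched accessory subunits 9.43%, 28.3%, 13.2% and 28.3%. The muscle factor MEF2 was added after the values were seen, and its letters were in 1.22% of the 82 promoters, those of Cox6a2 alone, against 1.68% of all.

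The 250 bases before the start are printed for Cox6a2, whose difference was largest, for Ndufs1 and Uqcrc2 as called subunits, and for Cycs as the carrier, each 5′ to 3′ on the strand of the gene. Capitals mark the MEF2 letters 50 to 41 bases before the start of Cox6a2, the ETS letters 199 to 193 bases before Ndufs1, the ETS letters at 117 to 111 and at 28 to 22 and the YY1 letters at 19 to 13 bases before Uqcrc2, and the NRF1 letters 158 to 151 bases before Cycs. Letters on the opposite strand are capitalised as they read here. Of other genes called in EP with a matched promoter, Atp5f1a (ETS and ERR) and Ndufa4l2 (YY1) also held letters. Sdha, Uqcrfs1, Cox6b2, Cox7a2l and Atp5if1 held none of them.
Cox6a2 (chr1:192219717-192219966, minus strand): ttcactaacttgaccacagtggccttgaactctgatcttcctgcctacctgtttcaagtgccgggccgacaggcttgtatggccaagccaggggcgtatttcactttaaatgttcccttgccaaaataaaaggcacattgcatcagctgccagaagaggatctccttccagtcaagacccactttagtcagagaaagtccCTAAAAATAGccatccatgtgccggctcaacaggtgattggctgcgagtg
Ndufs1 (chr9:72073606-72073855, minus strand): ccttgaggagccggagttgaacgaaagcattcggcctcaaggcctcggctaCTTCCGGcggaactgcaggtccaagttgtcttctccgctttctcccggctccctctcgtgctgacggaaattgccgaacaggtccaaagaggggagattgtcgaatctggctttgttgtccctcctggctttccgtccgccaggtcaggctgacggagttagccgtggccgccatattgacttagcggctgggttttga
Uqcrc2 (chr1:184598990-184599239, plus strand): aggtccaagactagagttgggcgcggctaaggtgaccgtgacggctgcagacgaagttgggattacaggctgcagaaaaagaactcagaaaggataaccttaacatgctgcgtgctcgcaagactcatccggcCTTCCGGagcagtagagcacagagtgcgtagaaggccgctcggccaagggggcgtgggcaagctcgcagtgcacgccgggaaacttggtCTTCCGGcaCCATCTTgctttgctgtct
Cycs (chr4:80984768-80985017, minus strand): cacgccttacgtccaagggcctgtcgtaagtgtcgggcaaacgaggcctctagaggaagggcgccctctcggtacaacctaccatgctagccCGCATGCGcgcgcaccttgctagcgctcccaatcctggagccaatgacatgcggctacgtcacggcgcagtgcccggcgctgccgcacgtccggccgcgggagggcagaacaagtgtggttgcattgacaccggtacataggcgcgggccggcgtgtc

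The gel groups were each compared with sham, and these comparisons share the 5 sham libraries with that of EP. In Cur gel 3 of 92 genes (3.26%) were higher and 4 (4.35%) lower, where 19% and 19.1% of all genes were. The ZNP gel group had 6 higher genes (6.52%) and 4 lower (4.35%), against 16.7% and 15.4%. In these groups the shares were below the background. In Cur/ZNP gel 19 (20.7%) were higher and 5 (5.43%) lower, against 20.2% and 19.5%, so the higher share was near the background and the lower share below it. The median log2 difference over the 92 genes was 0.40 for Cur/ZNP gel, 0.26 for ZNP gel and 0.10 for Cur gel, against -0.06, -0.01 and -0.03 over all genes. Scaling to library totals gave 25 higher and 0 lower genes for Cur/ZNP gel, 9 and 1 for ZNP gel and 3 and 1 for Cur gel, while it moved the median of all genes to 0.15, 0.20 and 0.16. Among all called genes the share of higher ones was then 80%, 83.8% and 77.2%, in place of 50.9%, 52% and 49.8%.

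The counts depended on single libraries. The 7 calls of Cur gel became 12 without Cur gel 1, 11 without Cur gel 4 and 4 without Cur gel 2. The 3 higher genes of Cur gel became 8 and 7 without Cur gel 1 and 4, 1 without Sham 1, Cur gel 3 or Cur gel 5, and 0 without Cur gel 2. The 10 calls of ZNP gel became 6 without Sham 3, and its 6 higher genes became 3 without Sham 3, without ZNP gel 4 or without Sham 4, EP 3 and EP 4, and 2 without ZNP gel 5. The 24 calls of Cur/ZNP gel became 15 without Sham 5, 13 without Cur/ZNP gel 1, 14 without Cur/ZNP gel 4 and 10 without Cur/ZNP gel 5, with 10, 8, 9 and 5 higher genes. Its 19 higher genes became 11 without Sham 1, 11 without Sham 4, EP 3 and EP 4, and 30 without Cur/ZNP gel 3. Calls that held under each of the 10 omissions were 3 of 7 for Cur gel (Cox4i2, Cox6a1, Atp5if1), 5 of 10 for ZNP gel (the same 3 with Ndufs1 and Uqcrc2) and 10 of 24 for Cur/ZNP gel (those 5 with Sdha, Atp5f1a, Cox6a2, Cox7a2l and Cox8a). Most lower calls among these did not hold under scaling to library totals, which ended those of Cox6a1, Cox7a2l and Atp5if1 in all 3 gel groups and those of Cox4i2 and Cox8a in Cur/ZNP gel.

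Ndufs1, Sdha and Uqcrc2 were higher and Cox4i2, Cox6a1, Cox7a2l and Atp5if1 lower in all 4 comparisons with sham, which is 7 of the 26 genes called in any of them. Under scaling to library totals the adjusted p for curcumin, zinc oxide and the combined gel became, in this order, 0.138, 0.223 and 0.064 for Cox6a1, 0.392, 0.44 and 0.294 for Cox7a2l, and 0.121, 0.324 and 0.266 for Atp5if1. With 2 groups fitted alone, Cox7a2l was lost in all 3 gel groups (0.102, 0.119 and 0.0599), and Cox6a1 (0.054) and Atp5if1 (0.0802) in ZNP gel. Ndufs1 held 5226, 28136, 16384, 5120 and 27263 normalised counts in Cur gel. It held 12945, 9396, 11384, 18711 and 32580 with ZNP gel, and 23484, 14414, 8284, 24043 and 33882 with the combined gel. Cur gel 1 and 4 lay within the sham range, and every ZNP gel and Cur/ZNP gel library was above it (log2 1.36, 1.62 and 1.91, SE 0.47; adjusted p 0.0275, 0.0126 and 0.00338). The call in Cur gel was lost without Sham 1 (0.0531) and without Cur gel 2, 3 or 5 (0.0909, 0.0601 and 0.0854). Sdha was likewise lost there without Sham 1, 3 or 5 (0.0612, 0.0593 and 0.0539) or Cur gel 2, 3 or 5 (0.0976, 0.0672 and 0.0911), Uqcrc2 without Cur gel 2 (0.0505) and Cox7a2l without Sham 3 (0.0564). With Cur gel and sham fitted alone, Ndufs1 (0.073) and Sdha (0.0711) were lost. In ZNP gel Sdha was lost without ZNP gel 5 (0.052) and Cox7a2l without Sham 3 (0.0592). Cox6a2 showed the same libraries apart, with 503, 17422, 9323, 59 and 18117 in Cur gel. The muscle marker sum was 77299 in Cur gel 1 and 10713 in Cur gel 4 and at least 1406450 in the other Cur gel libraries, and its part in these values was not tested.

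Cox4i2 was at 155, 192, 150, 141 and 308 in Cur gel. With ZNP gel it was at 170, 195, 202, 269 and 269, and with the combined gel at 350, 267, 235, 326 and 352. All of these libraries were below the lowest sham library (log2 -1.66, -1.39 and -0.92, SE 0.25; adjusted p 8.9e-05, 0.000684 and 0.00583). Under scaling to library totals the call in Cur/ZNP gel was lost (log2 -0.71, adjusted p 0.143). The log2 ratio of Cox4i2 to Cox4i1 differed from sham by -1.71, -1.63 and -1.23 (exact permutation p = 0.00794 for each). That of Cox6a2 to Cox6a1 differed by 4.43 for Cur/ZNP gel and 3.94 for ZNP gel (exact permutation p = 0.00794 for both) and by 2.13 for Cur gel (0.254). That of Cox8b to Cox8a differed by 3.86, 3.35 and 1.25 in that order (exact permutation p = 0.00794, 0.00794 and 0.524). Adjusted over the 12 tests, 0.00794 became 0.0106.

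In Cur/ZNP gel the higher genes were 11 of 22 core subunits (50%), 7 of 60 accessory subunits (11.7%) and the assembly factor Ndufaf1. Of all genes tested, 20.2% were higher and 19.5% lower, which is also the background of the marker counts below. The core count was 15 in DESeq2 and 8 without Sham 4, EP 3 and EP 4, whose own backgrounds are not given here. The core genes included all of complex II but Sdhc, with Sdhb at log2 1.29 ± 0.46 (adjusted p 0.0297) and Sdhd at 0.92 ± 0.36 (0.0485), and Atp5f1b at 1.11 ± 0.40 (0.033). Among the accessory genes were the muscle isoforms Cox6a2 (3.70 ± 1.19, 0.0176), Cox8b (3.28 ± 1.22, 0.0374) and Cox7a1 (1.70 ± 0.58, 0.0232). Cox8a was lower (-0.58 ± 0.17, 0.00848), and Cox8a held 4573, 4980, 4829, 4065 and 4312 normalised counts against 5258 or more in sham. Under scaling to library totals its difference was -0.37 and did not pass (adjusted p 0.105). Sdhb was lost without Sham 2 or 5 or Cur/ZNP gel 1, 4 or 5 (adjusted p 0.0531 to 0.0873) and Sdhd without Sham 1, 2, 3 or 5 or Cur/ZNP gel 1, 4 or 5 (0.0594 to 0.14). Sdhd was also lost with the replicate number as a block (0.0549), with the 2 groups fitted alone (0.0548), with the filter of edgeR (0.0522) and with no filter (0.0656). Atp5f1b was lost without Sham 1 or 5 or Cur/ZNP gel 1, 4 or 5 (0.0523 to 0.1), Cox8b without Sham 3, 4 or 5 or Cur/ZNP gel 1, 4 or 5 (0.0532 to 0.0983), and Cox7a1 without Cur/ZNP gel 1 or 5 (0.0517 and 0.0728). Ndufaf1 was lost without Sham 1 or 4 or Cur/ZNP gel 1, 4 or 5 (0.0523 to 0.085). Without Sham 4, EP 3 and EP 4, Atp5f1b (0.0557), Cox8b (0.0583) and Ndufaf1 (0.059) were lost, and Cox8b also with no filter (0.0511). In this group 10 of the 16 muscle markers were higher (median 3.25), as were 6 of 7 adipocyte markers (median 2.28) and 5 of 7 fibroblast markers (median 0.69), and 0 were lower in each list by limma. Autonomic nerve markers were 7 lower of 8 and proliferation markers 8 lower of 8. The part of these tissues in the group's differences was not tested.

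**Figure D5:**
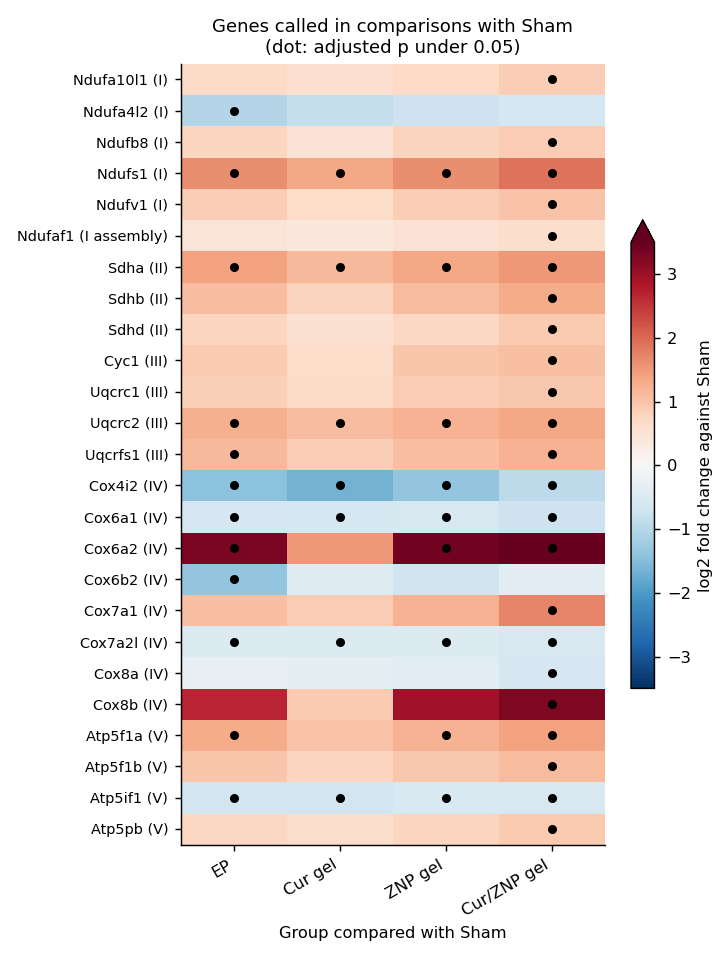
Log2 fold change against sham (colour) of 25 of the 26 genes called in any of the 4 comparisons, by gene (rows, complex in brackets) and group (columns), with a dot for an adjusted p under 0.05. Cur/ZNP gel has the most dots (23), Cur gel the fewest (7), and each gene has the same sign in all 4 columns; the called values keep their sign under each of the 21 alternatives.

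Between the groups with periodontitis, the comparisons ask whether a gel changed the genes relative to untreated disease or to another gel. By limma 0 of 92 genes were called in any of the 6 comparisons, and edgeR and DESeq2 also called 0. The background against EP was 0% of all genes for Cur gel, 0.00622% (1 gene) for ZNP gel and 0% for Cur/ZNP gel. Among gels it was 0% for Cur/ZNP gel compared with either single gel and 0% for ZNP gel compared with Cur gel. At an unadjusted p under 0.05 in limma were 1, 2 and 1 of the 92 genes against EP, in the same order. Among gels the count was 1 for the combined gel against Cur gel and 0 for the remaining pairs. Of all 16089 genes, 284 reached that p with curcumin, 481 with zinc oxide and 2054 with the combined gel against EP. It was reached by 1780 for the combined gel against Cur gel, 818 against ZNP gel and 183 between the single gels. In each comparison the share of the 92 genes was below that of all genes, with the widest gap for the combined gel against EP. For the single gels against EP and against each other the shares were near each other and rest on 0 to 2 genes.

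The smallest p against EP belonged to Cox6b2 in Cur gel (log2 0.94 ± 0.31, adjusted p 1) and in Cur/ZNP gel (0.97 ± 0.31, adjusted p 0.293) and to Ndufaf4, an assembly factor of complex I, in ZNP gel (0.39 ± 0.15, adjusted p 1). Cox6b2 held 85, 97, 98, 87 and 115 normalised counts in Cur gel, all above the EP range of 23 to 82, and 90, 64, 93, 131 and 128 in Cur/ZNP gel. Between gels it belonged to Cox4i2 for Cur/ZNP gel against Cur gel (0.74 ± 0.25, adjusted p 0.294) and against ZNP gel (0.47 ± 0.25, adjusted p 0.899), and to Cox8b for ZNP gel against Cur gel (2.01 ± 1.22, adjusted p 1). Against EP the median log2 difference over the 92 genes was 0.15 for Cur/ZNP gel, 0.02 for ZNP gel and -0.17 for Cur gel.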

How the data were processed

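RNA sequencing of gingiva was measured in 25 libraries. The deposited signal is the authors' read count per Ensembl transcript after division by a size factor for the library. The submitters' processing notes name DESeq2 and Rnor_6.0, libraries were stranded and depleted of ribosomal RNA, and the aligner, the counter and its strand setting are not given in the sources used here. Low values in each library gave the worth of 1 read, and all values were whole reads within 0.01 of it. Transcripts were summed by symbol, without 840 blank lines.

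Genes with at least 2 CPM in 1 library (16089) were analysed as log2(normalised count + 1) with limma 3.58.1 (R 4.3.3) in 1 model of all 25 libraries, with a robust variance trend. Fold changes are on that scale and understate low genes. Benjamini-Hochberg values cover all genes tested, the threshold was 0.05 and tests were two-sided. edgeR 4.0.16 and DESeq2 1.42.0 on the whole reads, other filters, pseudocounts and scalings, fits of the compared groups alone, a block for the replicate number and omission of each library were alternatives. Isoform ratios were tested by exact permutation. The fitting code was tested on simulated data. Library totals give the depth, and zero counts allow for counting error only. The libraries are from separate rats by the study's design.

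The genes and lists were chosen with earlier results of these data known. Named are the 4 genes with the smallest p between EP and sham in each complex and in the assembly factors, among those above a minimum mean expression. Also named are Cycs, the tissue isoforms of complexes I and IV, and the gene with the smallest p in each comparison without sham. Other genes were named after their values were seen. The values of 2 genes are not reported here, and counts and medians include them.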

Additional observations from a re-analysis of the deposited data

Results flagged for a closer look

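In each group of 5, the gap between the highest or lowest library and its neighbour, divided by the range of the group, was set against Dixon's critical value for the named genes, the levels per complex and the isoform ratios. Of 225 sets of values 22 passed, where chance flags about 1 in 20 groups of normally distributed values, and the sets are not independent. The normalised counts of the genes were not logged here, so that rate need not hold for them. In 21 of the 22 the library was ZNP gel 5, each time as the highest.

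In ZNP gel 5 the normalised counts of complex I and its assembly factors that stood apart were those of Ndufa4 (22163), Ndufaf1 (1339), Ndufaf2 (576), Ndufaf5 (1404) and Ndufaf6 (894), and the mean log2 level of the assembly factors was 10.34. In complexes II and III they were those of Sdhb (20579), Sdhc (19550), Sdhd (21650), Cyc1 (31167), Uqcrc2 (32167) and Uqcrfs1 (31674). In complex IV they were those of Cox4i1 (51485), Cox6a2 (28838), Cox6b1 (19377), Cox7a1 (181), Cox7b (16610) and Cox8b (14754), and in complex V those of Atp5f1a (133689), Atp5f1b (209007) and Atp5pb (14945). The muscle marker sum was also highest in this library (3914440), and its part was not tested. Without ZNP gel 5 the comparison of ZNP gel with sham called 2 genes higher and 5 lower.

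The remaining value was Atp5if1 in Cur/ZNP gel 4, which at 3717 normalised counts was the lowest of its group.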

How the results depend on the processing

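Calls of the 92 genes were recomputed under 21 alternatives per comparison with sham. For EP (13 calls) DESeq2 gave 20, scaling to library totals 7 and the 2 groups alone 24. For Cur gel (7 calls) edgeR gave 13, DESeq2 18, scaling to library totals 4 and the groups alone 4, and for ZNP gel (10 calls) edgeR gave 17 and DESeq2 26. For Cur/ZNP gel (24 calls) edgeR gave 29, DESeq2 35 and no filter 17. Across omissions of 1 library the calls ranged from 9 to 14 for EP, 4 to 12 for Cur gel, 6 to 13 for ZNP gel and 10 to 35 for Cur/ZNP gel, and the cause was not tested. Other filters, pseudocounts and TMM scaling stayed within 1.5 times these counts. Among groups with periodontitis the calls were 0 in limma, edgeR, DESeq2 and under the other alternatives run.

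Without Sham 4, EP 3 and EP 4 the log2 isoform ratios in EP differed from sham by 4.29 (Cox6a2), 3.96 (Cox8b) and -1.67 (Cox4i2), with fewer libraries than a p under 0.05 needs.

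Of the named genes in EP, 4 that were not called changed sign. Cox6b1 was at -0.0197 under scaling to library totals and ranged from -0.0185 (without Sham 5) to 0.21 over the omissions. Cox7b was at -0.0155 under that scaling, at -0.03 without Sham 2, and from -0.13 (without Sham 5) to 0.30. Ndufa4 ranged from -0.00368 (without Sham 5) to 0.35, and Ndufaf4 was at 0.0016 without the 3 libraries. Over all named genes and alternatives 649 values kept direction and side of the threshold, 35 no longer passed it, 23 newly passed it and 7 changed sign.

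Replicate numbers did not pair the libraries. The correlation of deviations from group means was over 0.1 in 17 of 50 same-numbered pairs (median -0.00746, against -0.0258 for other pairs), and 5 of 25 libraries correlated best with their own number. With the replicate number as a block, the calls were 14 for EP, 7 for Cur gel, 11 for ZNP gel and 22 for Cur/ZNP gel, where Ndufv1 (adjusted p 0.0531) and Sdhd (0.0549) were lost. The ratio of Cox7a1 to Cox7a2 was not run, since Cox7a2 was not found by symbol here. Depth limits the lowest genes, such as Cox7a1 at 14 to 207 normalised counts.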
